A study of Mus musculus with 13 samples.

Results

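Aquaporins are channel proteins that let water, and in some members glycerol, cross cell membranes. Described here are 3 of them: Aqp1, the water channel of endothelium and red blood cells, Aqp7, the glycerol channel of adipocytes, and Aqp4, a water channel of brain and muscle. They were chosen by comparing the genotypes in both tissues, with a lower level of Aqp1 in endothelial cells (ECs) as the reason given. They are 3 of the 12 aquaporin genes listed in the data and of 36109 listed genes in all. Because the difference between the genotypes chose them, their values in that comparison are a description and carry no p-value.

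The series asked how the loss of Hmox2, the heme oxygenase that takes part in oxygen sensing, alters gene expression in the aortic endothelium and the heart. RNA was sequenced from aortic ECs of 3 Hmox2+/+ mice (EC WT) and 3 Hmox2-/- mice (EC KO), and from whole hearts of 4 Hmox2+/+ mice (heart WT) and 3 Hmox2-/- mice (heart KO). All mice were kept in room air, Hmox2+/+ mice were littermates, and the deletion is carried in every cell of the mouse. The study calls the sequenced mice young, their exact age and sex are not given in the sources used here, and nothing in the labels ties an EC library to the heart library of the same mouse. EC RNA was obtained by lysing cells inside the lumen of the dissected aorta, while hearts were pulverized whole and extracted with another kit, so tissue and isolation method cannot be told apart. Hmox2 was 63.9 to 76.2 CPM (counts scaled by the TMM-normalized library size) in EC WT and 12.6 to 14.7 CPM in EC KO, and 37.3 to 42.5 CPM in heart WT against 7.53 to 8.90 CPM in heart KO. Of the 31-base words in its transcripts 73.4% are shared with other genes, so these levels, those left in the KO libraries included, are uncertain.

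Aquaporins are tetramers in which each subunit holds its own pore. The pore narrows where 2 short loops, each with an asparagine-proline-alanine motif called an NPA box, meet in the middle of the membrane. Strict water channels such as Aqp1 and Aqp4 carry the canonical boxes. Aquaglyceroporins such as Aqp7, Aqp3 and Aqp9 have a wider pore that also passes glycerol. In the vessel wall Aqp1 lies in the endothelial membrane, and Aqp7 lets glycerol leave adipocytes when stored triglyceride is broken down.

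The boxes of Aqp1 and Aqp7 differ in sequence, which is shown as background, and no result below rests on them. Each sequence is coding sequence of the reference (GENCODE M39, GRCm39), 51 bases read 5′ to 3′ on the gene's own strand, with the codons of the box in capitals. Both boxes of Aqp1 encode NPA, one in exon 1 (chr6:55313680-55313730, plus strand) and one in exon 3 (chr6:55322801-55322851). The first box of Aqp7 encodes NAA and is joined from exons 4 and 5 (between chr4:41035590-41036023, minus strand), and the second encodes NPS in exon 7 (chr4:41034792-41034842).
Aqp1 box 1: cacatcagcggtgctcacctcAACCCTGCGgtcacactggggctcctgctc
Aqp1 box 2: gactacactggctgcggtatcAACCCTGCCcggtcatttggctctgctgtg
Aqp7 box 1: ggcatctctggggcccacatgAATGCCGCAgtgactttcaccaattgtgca
Aqp7 box 2: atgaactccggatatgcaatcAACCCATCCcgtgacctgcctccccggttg

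Aqp1 (ENSMUSG00000004655) lies on chromosome 6 from 55313068 to 55325540 on the plus strand of GRCm39 and encodes 269 residues. Aqp7 (ENSMUSG00000028427) lies on chromosome 4 from 41032835 to 41048211 on the minus strand and encodes 303 residues. Aqp4 (ENSMUSG00000024411) lies on chromosome 18. Of all 31-base words in the reference transcripts, Aqp1 shared 0% with other genes, Aqp4 0.0777% and Aqp7 5.79%, so few of their reads could have been assigned to another gene. Reads were counted for 1 Aqp1 transcript, 4 Aqp7 transcripts and 11 Aqp4 transcripts. Nearly all Aqp7 counts fell to the transcript Aqp7-201 and nearly all Aqp4 counts in heart to Aqp4-201.

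Several properties of the libraries bear on these values. Total estimated counts were 26067147 to 31138642 in the EC libraries and 7268626 to 31619776 in the heart libraries, with the lowest in heart WT 1. Mitochondrially encoded genes held 57.8% to 66.0% of the TPM in heart WT but 34.7% to 43.7% in heart KO, and 35.8% to 51.7% in the EC libraries. Ddx3y, a Y-linked gene, was 0.883 TPM in EC KO 2 and 0.390 TPM in EC KO 3, and 11.5 to 22.5 TPM in the other libraries, EC KO 1 among them. All 14 endothelial markers were measured in the EC libraries, where they summed to 1050 to 2014 TPM in EC WT and 2206 to 2446 TPM in EC KO. The 12 adipocyte markers summed to more than the endothelial ones in every EC library (11430 to 19354 TPM), and included the adipocyte hormone Adipoq at a mean of 905 CPM in EC WT and 737 CPM in EC KO, and Ucp1, the uncoupling protein of brown fat, at 1340 to 2712 CPM. The libraries labelled ECs therefore held markers of adipocytes at a high level in both genotypes. In heart libraries 10 cardiomyocyte markers summed to 31325 to 59744 TPM. In such bulk samples, fewer cells of a type and less RNA per cell cannot be told apart.

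Aqp1 was the most abundant aquaporin in all 4 groups. Its level per transcript length was 126, 158 and 148 TPM in EC WT 1 to 3 and 56.3, 42.3 and 48.7 TPM in EC KO 1 to 3. In heart tissue it was 90.8, 110, 98.8 and 75.5 TPM in heart WT 1 to 4, and 140, 129 and 142 TPM in heart KO 1 to 3. EC WT and heart KO were the highest groups and their ranges overlapped, heart WT lay below both, and EC KO lay below every other library. Aqp1 ranked 632nd among all genes by mean TPM in EC WT and 1576th in EC KO, against 538th in heart WT and 557th in heart KO.

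**Figure D1:**
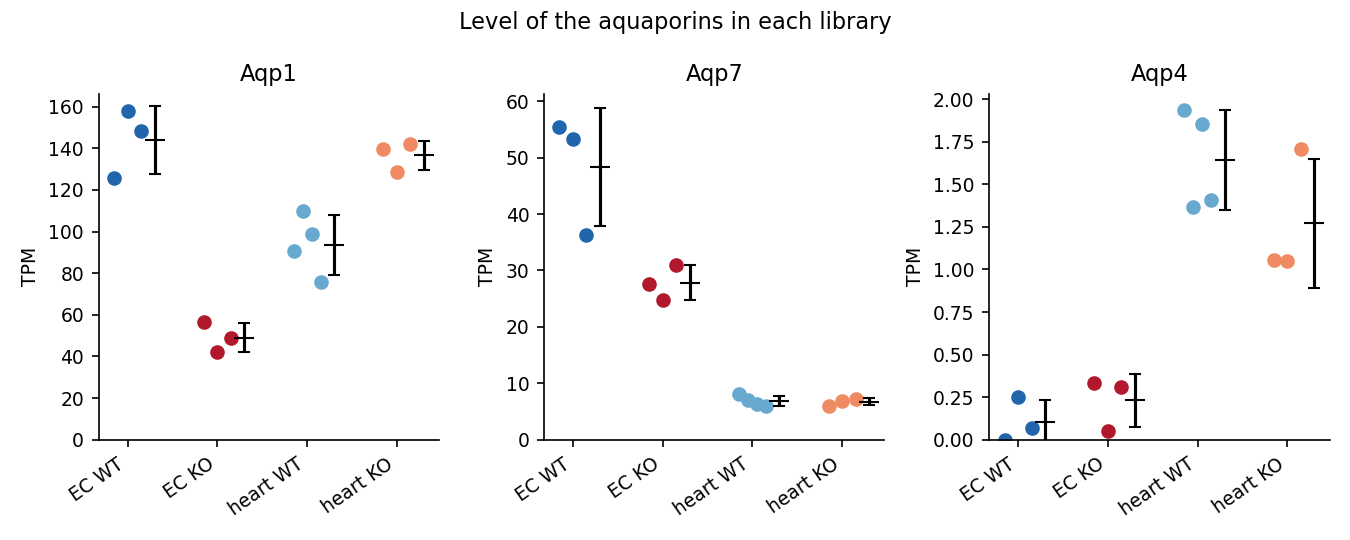
Level of Aqp1, Aqp7 and Aqp4 in TPM in each of the 13 libraries, by group; points are libraries, and the black bar beside them is the mean ± SD of the group (n = 3, or 4 for heart WT). EC KO libraries lie between 42.3 and 56.3 TPM for Aqp1, below every other library, while for Aqp7 both EC groups lie above both heart groups.

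Aqp1 was lower in ECs of Hmox2-/- mice. After TMM normalization it was 353, 340 and 309 CPM in EC WT and 124, 112 and 109 CPM in EC KO, so the groups did not overlap. The mean was 334 ± 22.5 CPM (SD, n = 3) against 115 ± 8.19 CPM (n = 3), a log2 fold change of -1.54 (SE 0.13), or 34.4% of the EC WT level. For comparison, the libraries of the 2 groups did not overlap for 40.7% of the 15301 genes tested in ECs, and edgeR's quasi-likelihood test called 18.1% of them at an adjusted p of at most 0.05 (8.06% lower). EC KO 1, which had Ddx3y at the level of the libraries other than EC KO 2 and EC KO 3, held 124 CPM of Aqp1. Whether the Ddx3y difference bears on that of Aqp1 was not tested. With any 1 library left out the log2 fold change stayed between -1.60 and -1.49.

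The 14 general endothelial markers of the same libraries did not go the way of Aqp1 as a list. Of the 14 markers, 6 rose, 1 fell and 7 did not pass, with a median log2 fold change of 0.59 against -0.02 for all genes. The count that rose was 1 without EC WT 1, EC KO 2 or EC KO 3, 3 without EC WT 2, 4 without EC KO 1 and 8 without EC WT 3, while the median stayed between 0.46 and 0.72. It was 1 on log2(TPM + 1), with a median of 0.60. Tie1, an endothelial receptor, rose by 1.01 on the log2 scale (edgeR adjusted p = 0.0123), and Nos3, the endothelial nitric oxide synthase, by 0.92 (adjusted p = 0.0183), although Tie1 did not pass without EC KO 3 (adjusted p = 0.0567) and Nos3 did not without EC WT 1, EC KO 2 or EC KO 3 (adjusted p of 0.0501 to 0.0756). Kdr, the VEGF receptor enriched in capillaries, fell by 0.58 (adjusted p = 0.0233), and with 1 library left out it missed the threshold in 5 of 6 fits (adjusted p up to 0.0850). Set against the summed endothelial markers, Aqp1 was 7.37% to 12.0% of their TPM in EC WT and 1.92% to 2.53% in EC KO. Of 10 arterial markers 1 rose, the gap junction gene Gja5 (log2 fold change 1.00, adjusted p = 0.0327), which missed the threshold in 4 of 6 fits with a library left out (adjusted p up to 0.0984). The arterial count was 0 in those 4 fits and 5 without EC WT 3, and the arterial median was 0.49. Of 10 capillary markers 1 fell, Kdr, but the list leaned the way of Aqp1. Its median was -0.37, with 8 markers below 0 and 2 above. Capillary markers summed to 6751 to 10572 TPM in EC WT and 4304 to 6098 TPM in EC KO, a sum that includes Fabp4, also an adipocyte marker.

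Markers of other cell types also differed between the EC groups. All 9 fast skeletal muscle markers tested fell (median -4.73), as did 9 of 10 cardiomyocyte markers (median -4.34). So did 6 of 10 mesothelial markers (median -3.66) and 5 of 10 smooth muscle markers (median -1.45). None of these 4 lists had a member that rose, and 8.06% of all EC genes were called lower. Markers near the floor in EC KO, such as Pvalb (0 to 0.0736 CPM there), passed the filter through EC WT alone. For these the direction was fixed by the filter. With 1 library left out, 4 to 10 fast skeletal muscle markers fell (4 without EC KO 3, 5 without EC KO 1 or EC KO 2), 6 to 9 cardiomyocyte markers (6 without EC KO 3), 4 to 8 mesothelial markers (4 without EC KO 3), and 1 to 10 smooth muscle markers (1 without EC WT 1, EC KO 2 or EC KO 3, 2 without EC WT 3, 10 without EC KO 1). Cardiomyocyte markers summed to 114 to 687 TPM in EC WT and 5.72 to 9.47 TPM in EC KO, mesothelial markers to 25.9 to 124 and 18.5 to 23.5 TPM, and fast skeletal muscle markers to 23.1 to 103 and 2.71 to 6.64 TPM. Smooth muscle markers summed to 2083 to 3314 TPM in EC WT, to 2344 TPM in EC KO 1 and to 625 and 691 TPM in EC KO 2 and EC KO 3. Aqp1 was 124 CPM in EC KO 1 beside 112 and 109 CPM in the other EC KO libraries. Setting the genes at or under 3 counts in EC KO to a floor of 3 counts a library left the fast skeletal muscle and mesothelial medians at -4.73 and -3.66. That applied to 2 of 9 and 1 of 10 markers, and to 0 cardiomyocyte markers. The medians could therefore hardly move, and this says little about other markers at low counts. Red blood cells also hold Aqp1, and of the 8 erythroid markers tested in ECs 0 passed in edgeR (median -0.21). Their summed level was 4730 to 9635 TPM in EC WT and 3982 to 8920 TPM in EC KO. Whether any of these cell types contributed to the Aqp1 difference was not tested.

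**Figure D2:**
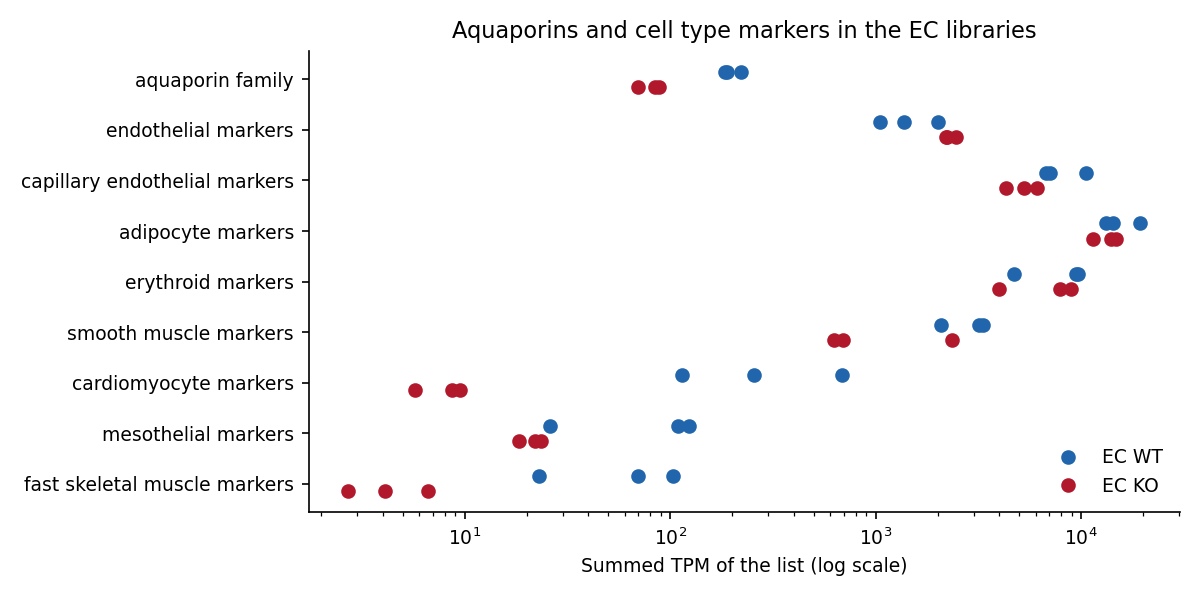
Summed TPM of the aquaporin family and of 8 lists of cell type markers in each EC library, on a log scale; blue points are EC WT and red points EC KO (n = 3 each). The aquaporin sum is lower in EC KO, endothelial markers are higher, and adipocyte and erythroid markers overlap. Capillary endothelial, cardiomyocyte, mesothelial and fast skeletal muscle markers are lower in every EC KO library.

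In heart tissue the direction of Aqp1 depended on the scale. After TMM normalization it was 241, 263, 290 and 211 CPM in heart WT and 319, 282 and 285 CPM in heart KO, and the groups overlapped. The log2 fold change was 0.23 (SE 0.12), with 0.15 to 0.31 when 1 library was left out and the lowest without heart WT 4. On log2(TPM + 1) it was 0.55, since every heart KO library was higher in TPM than every heart WT library, and with the mitochondrially encoded genes left out of the TPM it was -0.14. The median of all genes moved with the scale too, from -0.01 to 0.22 and -0.29, and relative to that median Aqp1 was 0.24, 0.33 and 0.15 higher. The genes called in heart likewise split into 2380 higher and 2238 lower after TMM normalization, 4506 and 439 on log2(TPM + 1), and 632 and 4260 with mitochondrially encoded genes left out. In ECs 1532 were higher and 1234 lower, against 558 and 819 on log2(TPM + 1). In ECs the same 3 scales gave -1.54, -1.54 and -1.39, and relative to the median -1.52, -1.48 and -1.46. The difference in ECs thus had 1 direction on every scale, and the one in heart had not.

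**Figure D3:**
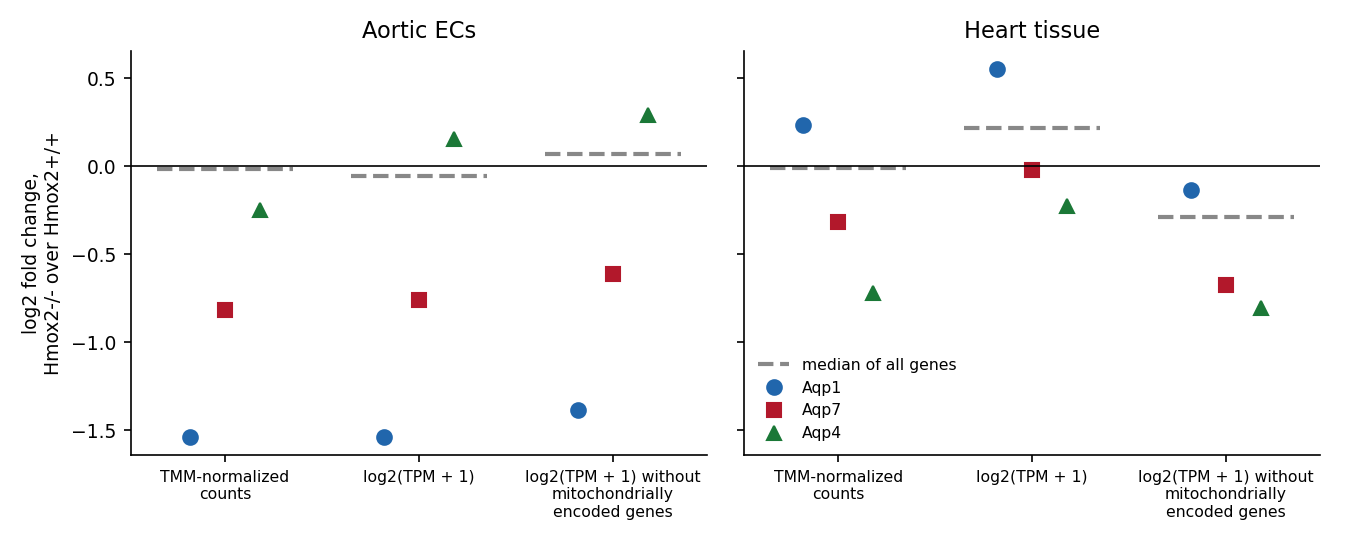
Log2 fold change of Aqp1, Aqp7 and Aqp4 between Hmox2-/- and Hmox2+/+ libraries in ECs (left) and heart tissue (right) on 3 scales, with the median of all genes as a dashed line. In heart tissue the median runs from -0.01 to 0.22 and -0.29, and Aqp1 lies above it each time, at 0.23, 0.55 and -0.14.

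Differences in heart also followed transcript length. Genes were split into 4 equal groups by their counts over their TPM, a stand-in for transcript length. The median log2 fold change of heart KO over heart WT was 0.36 in the shortest group, 0.10 and -0.09 in the next, and -0.32 in the longest. The corresponding values in ECs were -0.13, -0.01, 0.05 and 0.02. Aqp1 stood in the third group, Aqp7 in the second, Aqp4 in the longest and Aqp8 in the shortest. Their heart values stand beside that trend, and how much of each difference it accounts for was not tested.

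In heart tissue, where 33.4% of all genes were called (17.2% higher and 16.2% lower), the endothelial lists stood below that share. Of 14 endothelial markers 3 rose and 1 fell (median 0.17), of 10 arterial markers 1 rose and 1 fell (median -0.05), and of 10 capillary markers 1 rose and 0 fell (median 0.09). On log2(TPM + 1) the endothelial list had 6 higher and 0 lower (median 0.39), the arterial list 3 and 0 (median 0.30) and the capillary list 5 and 0 (median 0.40). With mitochondrially encoded genes left out these became 2 and 2 (median -0.26), 0 and 3 (median -0.27) and 0 and 1 (median -0.27), so the lists had no direction that held on every scale. Without heart KO 3, 6 endothelial markers and 3 capillary markers were higher. All 5 erythroid markers tested rose (median 1.98), their sum being 341 to 779 TPM in heart WT and 2416 to 3507 TPM in heart KO. Of the 10 mesothelial markers 9 rose (median 0.97), of 10 smooth muscle markers 4 rose and 1 fell (median 0.35), and of 7 fast skeletal muscle markers 2 rose (median 0.26). On TPM without mitochondrially encoded genes 2 mesothelial markers rose (median 0.37), 1 smooth muscle marker rose and 2 fell (median 0.08), and 1 fast skeletal muscle marker rose (median -0.08), while all 5 erythroid markers rose on each of these scales. Without heart KO 2 the mesothelial count was 3, the smooth muscle count 2 and the fast skeletal muscle count 0. Hbb-bs, a beta globin, rose by 2.31 on the log2 scale (edgeR adjusted p = 4.2e-05). As red blood cells hold Aqp1, this stands beside its heart values, and its part in them was not tested. As a share of the summed endothelial markers, Aqp1 was 36.2% to 46.2% in heart WT and 36.7% to 42.2% in heart KO.

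Aqp7 was the next most abundant aquaporin, and was highest in ECs. It was 55.3, 53.2 and 36.4 TPM in EC WT, 27.5, 24.8 and 30.998 TPM in EC KO, 8.11, 6.98, 6.36 and 6.03 TPM in heart WT, and 6.05, 6.84 and 7.27 TPM in heart KO. Every EC library was above every heart library, the EC groups did not overlap, and the heart groups did. After TMM normalization Aqp7 was 146, 106 and 71.0 CPM in EC WT and 57.3, 60.5 and 66.1 CPM in EC KO. The log2 fold change was -0.81 (SE 0.24), or 56.9% of the EC WT level. EC WT 1 and EC WT 3 differed by more than EC WT 3 and EC KO 3 did, and without EC WT 1 the log2 fold change was -0.53.

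Glycerol reaches Aqp7 from the breakdown of triglyceride in lipid droplets. Of 14 genes of glycerol release and use, 4 fell in ECs, 0 rose and 10 did not pass, where 8.06% of all EC genes were called lower. Their median log2 fold change was -0.78 against -0.02 for all genes. G0s2, an inhibitor of the first lipase of the route, fell by 1.42 on the log2 scale (SE 0.20, edgeR adjusted p = 0.00637), from 372 ± 36.2 CPM to 139 ± 30.5 CPM, and passed with any 1 library left out. Pnpla2, that lipase, fell by 1.05 (SE 0.26, adjusted p = 0.0341). Lipe, the hormone-sensitive lipase, fell by 1.13 (SE 0.26, adjusted p = 0.0267), and Plin5, a lipid droplet coat protein, by 0.71 (SE 0.20, adjusted p = 0.0435). With 1 library left out Pnpla2, Lipe and Plin5 each missed the threshold in 5 of 6 fits, every one but that without EC WT 3, with adjusted p up to 0.116, 0.108 and 0.154, so that the 4 calls became 1 in those fits and 6 without EC WT 3. Gk, the kinase that recovers glycerol, went the other way without passing (log2 fold change 1.46, SE 0.42, adjusted p = 0.0502). The count of the list that rose was 1 with DESeq2, upper-quartile factors, no filter or 1 fit of all libraries. It was also 1 without EC KO 1, and 0 in the other settings.

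**Figure D4:**
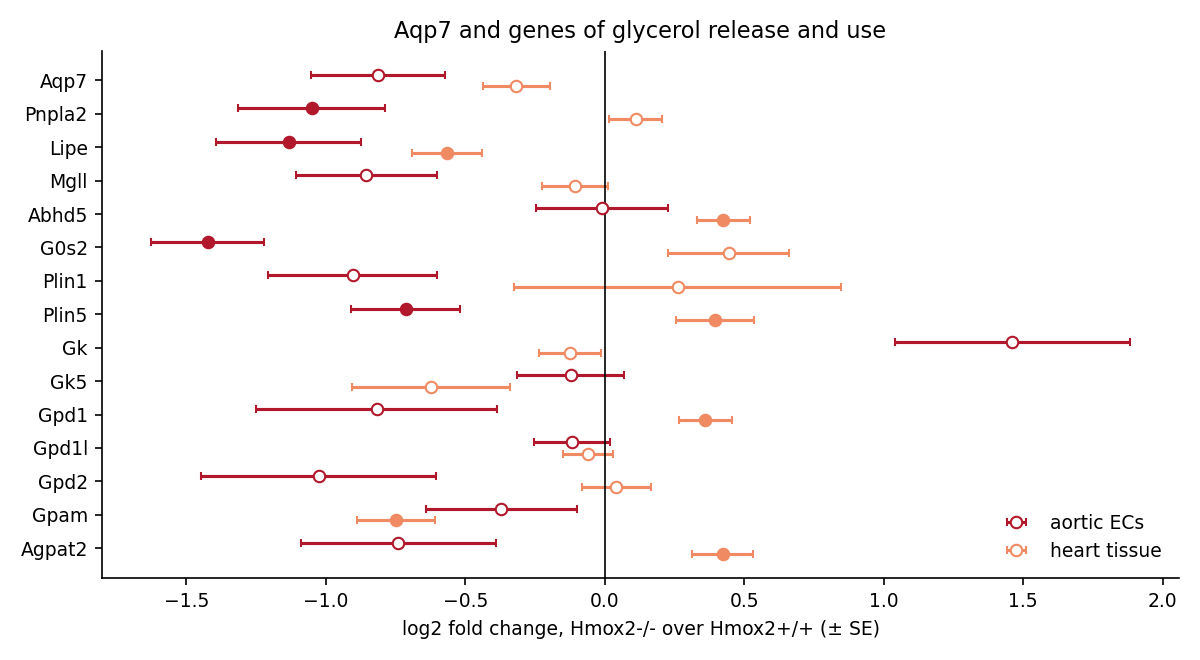
Log2 fold change (± SE) of Aqp7 and of 14 genes of glycerol release and use between Hmox2-/- and Hmox2+/+ libraries in ECs (dark red) and heart tissue (orange); filled points passed an adjusted p of 0.05, and Aqp7, which was not tested, is drawn open. In ECs G0s2, Lipe, Pnpla2 and Plin5 are filled and lie between -1.42 and -0.71, while Gk lies at 1.46 and is open.

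The summed level of the adipocyte markers overlapped between the EC groups. Of the 12, 1 fell and 11 did not pass (median -0.41), a share near the 8.06% of all EC genes called lower. The count that fell was 4 without EC WT 3 (median -0.62) and with DESeq2. The median was -0.23 without EC WT 1. Their sum was 13233 to 19354 TPM in EC WT and 11430 to 14756 TPM in EC KO. The one that fell was Lep, the adipocyte hormone leptin, by 3.77 on the log2 scale (adjusted p = 0.00192). The log2 fold change of Adipoq was -0.30 (SE 0.23, adjusted p = 0.38), and that of Ucp1 0.24 (SE 0.34, adjusted p = 0.645). The sum includes Fabp4, which is also a capillary marker, and Plin1, which is also on the glycerol list. The part of adipocytes in the Aqp7 difference was not tested.

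In heart tissue Aqp7 was 20.2, 16.0, 17.3 and 15.1 CPM in heart WT and 13.2, 14.4 and 13.2 CPM in heart KO. The groups did not overlap in CPM (as for 40.4% of the 13816 genes tested in heart) and overlapped in TPM. Its log2 fold change was -0.32 (SE 0.12) after TMM normalization, -0.024 on log2(TPM + 1) and -0.67 with mitochondrially encoded genes left out. Glycerol genes gave a mixed picture, with 4 of 14 higher (1 without heart KO 2, 2 without heart WT 4), 2 lower and 8 that did not pass (median 0.08 against -0.01), beside the 33.4% called of all heart genes. The split was 6 higher and 1 lower on log2(TPM + 1) (median 0.28), and with mitochondrially encoded genes left out 0 and 5 (median -0.25). Gpam, which starts the synthesis of triglyceride, fell by 0.75 (edgeR adjusted p = 0.00312), and Lipe by 0.56 (adjusted p = 0.00701). Abhd5, the activator of Pnpla2, rose by 0.42 (adjusted p = 0.00689), and so did Agpat2 (0.42, adjusted p = 0.0133). Of these, Abhd5 and Agpat2 did not pass on log2(TPM + 1) without mitochondrially encoded genes (adjusted p = 0.295 and 0.899), Lipe did not on log2(TPM + 1) (adjusted p = 0.164), and Agpat2 missed the threshold in 1 of 7 fits with a library left out (0.0556). Of 8 adipocyte markers tested in heart 1 rose and 1 fell (median 0.26), against 4 and 0 on log2(TPM + 1), and Adipoq was near the floor there, at means of 0.279 and 0.568 CPM.

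Aqp4 was a gene of the heart libraries. In heart WT it was 1.94, 1.37, 1.85 and 1.41 TPM, and in heart KO 1.05, 1.05 and 1.71 TPM, so heart KO 3 lay among the heart WT libraries. In ECs it was 0, 0.249 and 0.0671 TPM in EC WT and 0.336, 0.0539 and 0.308 TPM in EC KO, from 0 to 24 counts a library. Of its EC KO counts, 9, 1 and 8 of 11, 4 and 10 fell to Aqp4-210, a transcript that held 0 to 5.54 counts in the heart libraries. At that depth no difference between the EC groups could be read, as the log2 fold change of -0.25 had an SE of 1.01 and turned to 1.04 without EC WT 2, to 1.21 with length-scaled counts and to 0.15 on log2(TPM + 1).

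In heart tissue Aqp4 was 7.44, 5.06, 10.5 and 7.82 CPM in heart WT and 3.35, 4.57 and 6.10 CPM in heart KO. The groups overlapped, by heart WT 2 and heart KO 3, and the log2 fold change was -0.72 (SE 0.26). It was -0.22 on log2(TPM + 1) and -0.81 with mitochondrially encoded genes left out.

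Aqp4 is held in the membrane by the dystrophin-associated complex, of which 13 genes were listed. In heart 5 of them fell, 1 rose and 7 did not pass (median -0.32 against -0.01 for all genes, of which 16.2% were called lower). On log2(TPM + 1) 1 was lower and 2 were higher (median -0.0069), and with mitochondrially encoded genes left out 10 were lower and 0 higher (median -0.68), against medians of 0.22 and -0.29 for all genes. Dag1, the dystroglycan core of the complex, fell by 0.49 on the log2 scale (SE 0.10, edgeR adjusted p = 0.00447), from 447 to 320 CPM. Sntb1, a syntrophin, fell by 1.37 (SE 0.31, adjusted p = 0.00761), and Sspn, the sarcospan gene, by 0.39 (SE 0.09, adjusted p = 0.00878). Dmd, the dystrophin gene, and its relative Utrn fell by 0.78 and 0.64 (adjusted p = 0.0135 and 0.0242). Dag1 and Sspn did not pass on log2(TPM + 1) (adjusted p = 0.352 and 0.695). Among cell types of the heart, 4 of 10 cardiomyocyte markers rose and 2 fell (median 0.15), against 1 and 4 on TPM without mitochondrially encoded genes (median -0.24).

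In ECs 5 of the 13 complex genes fell and 0 rose, with a median of -0.35, where 8.06% of all EC genes were called lower. The count that fell was 1 without EC KO 2 or EC KO 3, 2 without EC WT 1 and 3 without EC KO 1. Sgca, a sarcoglycan of striated muscle, fell by 1.60 (SE 0.36, edgeR adjusted p = 0.0243), and striated muscle markers fell in these libraries too. Sntb1 and Sgcd fell by 0.92 and 0.72 (adjusted p = 0.0284 and 0.0377). Dag1 passed narrowly (log2 fold change -0.47, adjusted p = 0.0492) and missed the threshold in 5 of 6 fits with a library left out (adjusted p up to 0.171). Sntb1 missed it in 3 of 6 (up to 0.109), Sgca in 3 of 6 (up to 0.0956) and Sgcd in 4 of 6 (up to 0.129).

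Among the other aquaporins, 3 were tested between the genotypes in ECs and 2 in heart, and Aqp8 in heart was the one that passed. Aqp8, a channel for water and hydrogen peroxide, was detected in heart tissue alone, with 13, 58, 11 and 28 counts in heart WT 1 to 4 and 122, 123 and 98 counts in heart KO 1 to 3, and 0 counts in each EC library. Every heart KO library was above every heart WT library, where the groups did not overlap for 40.4% of all heart genes. In heart 33.4% of all genes were called (17.2% higher), so a call there is common. Aqp8 rose by 1.44 on the log2 scale (SE 0.39, edgeR adjusted p = 0.0157), from 1.34 ± 0.67 CPM (n = 4) to 3.41 ± 0.42 CPM (n = 3). The adjusted p ranged from 0.00226 to 0.0570 over 15 other settings, and exceeded 0.05 without heart KO 2 (0.0555), with all 13 libraries in 1 fit (0.0548) and on TPM without mitochondrially encoded genes (0.0570).

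Aqp11, an aquaporin of the endoplasmic reticulum, was 2.12 to 8.13 TPM in EC WT, 1.53 to 2.79 TPM in EC KO, 0.450 to 0.748 TPM in heart WT and 1.10 to 1.46 TPM in heart KO. Its log2 fold change between the genotypes was -0.58 in ECs (SE 0.40, adjusted p = 0.326) and 0.29 in heart (SE 0.23, adjusted p = 0.349). In heart it passed in 2 of 15 other settings, 1 of them log2(TPM + 1) (0.53, adjusted p = 0.00303). Over the 15 settings it ran from 0.18 to 0.79, with adjusted p of 0.00303 to 0.591, and of 0.284 or more with a library left out. The glycerol channels Aqp3 and Aqp9 were near the floor in ECs, at 3.08 to 26.5 and 9 to 46.6 counts, with log2 fold changes of 0.54 (SE 0.67, adjusted p = 0.591) and 1.30 (SE 0.58, adjusted p = 0.154). In heart tissue they had at most 5.01 and 7.45 counts and were not tested between the genotypes. Mip, Aqp2, Aqp5, Aqp6 and Aqp12 passed the filter in no comparison. Aqp5 reached 42.3 counts in EC WT 2 and Aqp2 11 counts in EC KO 1, Mip and Aqp6 had at most 2 and 4 counts in any library, and Aqp12 had 0 in all 13.

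**Figure D5:**
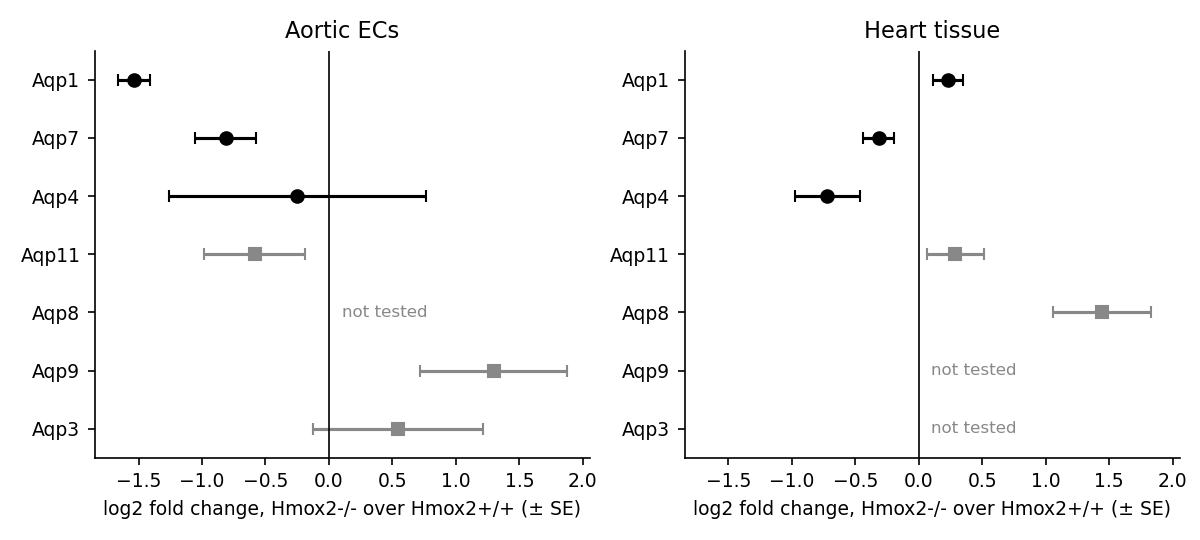
Log2 fold change (± SE) of the aquaporins with enough counts between Hmox2-/- and Hmox2+/+ libraries, after TMM normalization, in ECs (left) and heart tissue (right); black circles are Aqp1, Aqp7 and Aqp4 and grey squares the other family members. Aqp1 is at -1.54 in ECs and 0.23 in heart, and Aqp8, with 0 counts in ECs, is at 1.44 in heart.

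Added together, the 12 aquaporins came to 184 to 222 TPM in EC WT, 69.4 to 88.3 TPM in EC KO, 84.4 to 121 TPM in heart WT and 142 to 155 TPM in heart KO. Aqp1 made up 68.4% to 78.4% of that sum in EC WT and 57.5% to 63.8% in EC KO. Aqp7 made up 19.2% to 30.1% and 31.2% to 36.6%. In heart tissue Aqp1 held 88.4% to 91.5% of the sum in heart WT and 91.0% to 92.4% in heart KO, and Aqp7 5.78% to 7.89% and 4.01% to 4.84%. The pair thus carried most aquaporin RNA in every group, with Aqp7 a larger share in ECs than in heart.

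The tissues were also compared within each genotype, a contrast that the choice of Aqp7 and Aqp4 did not use, although the libraries are the same. For Aqp1 the choice rested on its levels in both tissues, so its values here carry no test. Between heart WT and EC WT 67.9% of 14777 genes were called (32.5% higher in heart and 35.4% lower), and between heart KO and EC KO 71.5% of 15114 genes (34.3% higher and 37.3% lower), so a call there is common. The libraries of the tissues did not overlap for 67.9% and 75.9% of these genes. Aqp7 was lower in heart than in ECs by 1.95 on the log2 scale in Hmox2+/+ mice (SE 0.21, edgeR adjusted p = 2.04e-05) and by 1.38 in Hmox2-/- mice (SE 0.11, adjusted p = 9.69e-06). Aqp4 was higher in heart by 5.08 (SE 0.65) and 4.70 (SE 0.40), resting on 0 to 24 EC counts. It passed the filter through the heart libraries alone, so its direction is a description and carries no test. The Aqp7 calls held in every setting tried. The log2 fold change of Aqp1 between the tissues of Hmox2+/+ mice was 0.30 (SE 0.13) after TMM normalization and -0.62 (lower in heart) on log2(TPM + 1), where the median of all genes was -0.70. The calls between the tissues also split differently by scale, from 4802 higher and 5231 lower in heart WT after TMM normalization to 1577 and 9513 on log2(TPM + 1) and 3211 and 6422 with mitochondrially encoded genes left out. In Hmox2-/- mice they went from 5179 and 5633 to 2740 and 8165, 2330 and 9187, and 4136 and 6814 with upper-quartile factors. In Hmox2-/- mice Aqp1 was 2.15 higher in heart than in ECs on the log2 scale (SE 0.13).

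Of the other family members, Aqp11 was lower in heart than in ECs by 1.67 in Hmox2+/+ mice (SE 0.38, adjusted p = 0.00285) and by 0.72 in Hmox2-/- mice (SE 0.21, adjusted p = 0.0133), the latter not past the threshold with length-scaled TPM (-0.23, adjusted p = 0.464) or with all 13 libraries in 1 fit (adjusted p = 0.0674). Without EC WT 2, the library with the most Aqp11, the first was -1.05 (adjusted p = 0.00736). Aqp8 was at least 12.7-fold higher in heart WT and at least 33.7-fold higher in heart KO, against a floor of 3 counts in each EC library. In Hmox2-/- mice Aqp3 and Aqp9 were lower in heart by 2.32 and 2.69, from at most 46.6 counts a library. Both passed the filter through the EC KO libraries alone, so their direction is a description and carries no test.

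Cells that shrink in hypertonic surroundings switch on a response led by Nfat5, and 12 of its genes were looked at as the osmotic side of aquaporin function. In ECs 1 of 12 passed, where 18.1% of all EC genes were called, and the list had a median of -0.13. It was Slc2a1, a glucose transporter, which rose by 0.75 (edgeR adjusted p = 0.0401, and up to 0.130 with a library left out). In heart 5 of 11 fell (3 without heart KO 2) and 1 rose, with a median of -0.27, where 33.4% of all genes were called. On log2(TPM + 1) 0 of the 11 fell and 2 rose (median 0.06), so that all 5 falls were lost on that scale, and with mitochondrially encoded genes left out 5 fell and 0 rose (median -0.33). Nfat5, the transcription factor of the response, fell by 1.01 on the log2 scale (SE 0.18, adjusted p = 0.00262), from 45.4 to 22.5 CPM. Slc6a6, the taurine transporter, fell by 0.54 (adjusted p = 0.00277), and Slc12a2, a sodium, potassium and chloride cotransporter, by 0.63 (adjusted p = 0.0124). Akr1b3 (aldose reductase, Akr1b1 in the annotation) rose by 0.49 (adjusted p = 0.0108). On log2(TPM + 1) Nfat5 and Slc6a6 did not pass (adjusted p = 0.0754 and 0.214), and Akr1b3 did not with mitochondrially encoded genes left out (adjusted p = 0.321).

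The genes whose pattern was most like each aquaporin were named by the smallest root mean square difference of centred log2 CPM over the 13 libraries, among 15938 genes. For Aqp1 they were Mapkapk3 (0.17), Zfp993 (0.23), Gadd45gip1 (0.23), Stradb (0.24) and Prkaca (0.27), where the median gene stood at 1.03. Mapkapk3, a stress-activated kinase, had a log2 fold change of -1.28 in ECs and 0.26 in heart, beside -1.54 and 0.23 for Aqp1, and its heart value turned to -0.26 on TPM without mitochondrially encoded genes. Zfp993 and Gadd45gip1 share 89.8% and 40.4% of their 31-base words with other genes, so their own values are uncertain. For Aqp7 they were Ppp1r15b (0.15), Dcun1d3 (0.23), Itpr2 (0.23), Myo5a (0.23) and Pnpla2 (0.23), with a median gene at 1.03. Pnpla2 is the lipase of the glycerol list above. For Aqp4, at low counts, the nearest were Mrgprh (0.49), Ifit1bl1 (0.59), Lrp2bp (0.65), Ak4 (0.67) and Cenpf (0.68), with a median gene at 2.66.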

How the data were processed

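RNA of 13 libraries was sequenced by the submitters from oligo-dT-selected RNA as paired reads of 100 bases. The authors made the deposited estimated counts and the deposited TPM values per transcript with kallisto 0.44.0, 1 library at a time and with no scaling across libraries. As index the methods name GENCODE M32 (GRCm39), while the submitters' processing notes list mm10 and GRCh38.p13, and default kallisto settings ignore strand. Here 115140 of 118489 transcripts (97.2%) were matched by stable identifier to GENCODE M39, the unmatched held 0.755% to 1.01% of the counts, and values were summed per gene and counts rounded.

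Low genes were removed by filterByExpr (minimum count 10), and the rest were TMM-normalized and fitted with edgeR 4.0.16 (quasi-likelihood F-test, R 4.3.3), for each of 4 comparisons on its own libraries. Genes were called where the p, adjusted by Benjamini-Hochberg across every gene tested, was 0.05 or less. Biological coefficients of variation were 0.241 (ECs) and 0.149 (heart). Adjusted p-values in the text are edgeR's unless another fit is named, and they judge a difference against the spread between these libraries. A group at 3 counts or fewer in each library was set to that floor, which covers counting error only. The fits were tested on simulated data. Alternatives were DESeq2 1.42.0, upper-quartile factors, length-scaled TPM, no filter, a block for replicate number, 1 fit of all libraries, a log2 fold change of at least 1 and leaving out each library. Fits with limma 3.58.1 on log2(TPM + 1), with and without mitochondrially encoded genes, were added after seeing the data. That scale understates changes of low genes.

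The aquaporins, gene lists and marker lists were chosen with earlier results of these data known. Genes named are the aquaporins, Hmox2, the 5 genes most like each, and up to 4 genes of each list and comparison (smallest adjusted p, then highest level). Dmd, Utrn, Gk, Adipoq, Dag1 in ECs and Ddx3y were named after their values were seen. Some genes of the dystrophin complex list are counted but not reported here by name. Sequences were copied from the GRCm39 reference. Figures were drawn with matplotlib 3.10.9.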

Additional observations from a re-analysis of the deposited data

Results flagged for a closer look

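Bnc1, a mesothelial marker, was 1.19 CPM in heart WT 1, apart from 0.389 to 0.457 CPM in the other heart WT libraries, and heart WT 1 was also the shallowest library. A gap of that size is met by chance in about 5% of groups.

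The 12 genes that follow had every Hmox2-/- library of ECs on one side of the Hmox2+/+ libraries and every Hmox2-/- heart library on the other side, and the difference between the tissues was not tested. Over all genes tested, the genotypes did not overlap for 40.7% in ECs and 40.4% in heart. The share doing so in opposite directions was not counted. Mapkapk3 and Stradb were named for a pattern like that of Aqp1 in these same libraries, so their place here is partly built in. Of the genes with a pattern like Aqp1, Mapkapk3 was -1.28 in ECs and 0.26 in heart on the log2 scale, and Stradb -1.18 and 0.25. Sgca of the dystrophin complex was -1.60 and 0.24, and Akr1b3 of the hypertonicity list -0.27 and 0.49. The heart direction of 3 of them turned on TPM without mitochondrially encoded genes, to -0.26 for Mapkapk3, -0.013 for Stradb and -0.068 for Sgca. The mesothelial markers Upk3b and Msln were -5.78 and -4.63 in ECs, against 1.31 and 0.88 in heart. The muscle markers Myl3 (-8.13), Myl2 (-8.85), Myl7 (-4.19), Pvalb (-6.89), Actn3 (-3.13) and Des (-1.42) were below 0 there and above 0 in heart (0.47, 0.64, 2.92, 2.19, 1.51 and 0.51). The fitted value of Pvalb rests on EC KO libraries at the floor, against which it was at least 54.9-fold lower. Myl2, Myl3 and Myl7 were also low in EC KO, at 0.0354 to 0.268, 0 to 0.192 and 0 to 1.19 CPM. They and Pvalb passed the filter through EC WT alone, so their direction in ECs was fixed by the filter and their size is uncertain.

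Between heart and ECs, Myl7 (-2.43), Tnni2 (-2.98), Pvalb (-5.05) and Actn3 (-3.09) were lower in heart in Hmox2+/+ mice and higher in heart in Hmox2-/- mice (4.77, 3.14, 4.08 and 1.61). For Pvalb the latter rests on EC KO libraries at the floor, against which heart KO was at least 5.20-fold higher. Tnni2 and Myl7 were also low in EC KO, at 0.0708 to 0.257 and 0 to 1.19 CPM. There these genes passed the filter through heart KO alone, so that direction was fixed by the filter. Pvalb in Hmox2+/+ mice passed through EC WT alone, with 0.0692 to 0.190 CPM in heart WT. Over all genes tested, the tissues did not overlap for 67.9% in Hmox2+/+ mice and 75.9% in Hmox2-/- mice. The changes of direction between the genotypes were not tested either.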

How the results depend on the processing

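The direction and size of the Aqp1 difference in ECs held under all alternatives, from -1.60 to -1.49 with a library left out and -1.39 on TPM without mitochondrially encoded genes. In heart, Aqp1 was 0.55 on log2(TPM + 1) and -0.14 without mitochondrially encoded genes, Aqp4 was -0.22 on log2(TPM + 1), and Aqp7 was -0.024 and -0.67 on these scales. Between heart and ECs of Hmox2+/+ mice, Aqp1 was 0.30 with DESeq2, 0.36 with length-scaled TPM, 0.34 with all 13 libraries in 1 fit, -0.62 on log2(TPM + 1), and 0.23 to 0.38 with a library left out. In Hmox2-/- mice it was 1.90 with upper-quartile factors, 1.47 on log2(TPM + 1) and 1.27 without mitochondrially encoded genes.

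Counts of called genes depended more on the settings. In ECs 2766 genes were called, against 4033 with DESeq2, 4319 with all libraries in 1 fit, 1377 on log2(TPM + 1), 1420 with a log2 fold change of at least 1, and 638 to 3596 with a library left out (1379 without EC WT 1, 1665 without EC WT 2, 3596 without EC WT 3, 1583 without EC KO 1, 1042 without EC KO 2, 638 without EC KO 3). In heart the 4618 became 2899 with the replicate block, 927 with the fold change and 2888 to 5686 with a library left out, the lowest without heart KO 2. Between the tissues the fold change left 5848 and 7195. In heart, 3 genes past the threshold on 1 scale had the other direction on another, Prkaca (-0.35) and Plin5 (-0.012) without mitochondrially encoded genes and Lpl (0.10) on log2(TPM + 1), and genes past it on neither turned too, Pnpla2, Nos3 and Kdr among them. Same-numbered libraries correlated between -0.05 and 0.18 in their deviations, so the numbers were not taken as pairs. The replicate block called 2716 genes in ECs, 9114 in Hmox2+/+ and 11000 in Hmox2-/- tissues. The causes of these shifts were not tested. Depth limits Aqp4 in ECs, Aqp3, Aqp9 and heart WT 1.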
